A study of Penicillium oxalicum with 9 samples.

Results

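The comparison of a clrB deletion strain with its wild type in Penicillium oxalicum, a filamentous fungus that secretes enzymes against plant cell walls, rested on 6 of the 9 libraries of the study. The rule was the strain label: 3 libraries of the wild type 114-2 against 3 of the strain in which clrB is deleted, over all 9907 genes of the deposited table. Both strains were grown from conidia for 22 h at 30 °C with 2% glucose, and the mycelia were washed and kept for 24 h on Mandel's medium holding cellulose and wheat bran, each at 1%. The labels give no other allele, marker or treatment for either strain, and do not say how many transformants the deletion stands for or whether the libraries came from separate cultures. Each p-value is therefore set against a spread among libraries that may be only technical. The other 3 libraries, of an rcoA deletion on the same medium, entered the shared estimate of that spread. They also entered the mean level by which genes were chosen for testing, and the alternative scalings.

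ClrB is a zinc cluster transcription factor of filamentous ascomycetes. Its relatives in Aspergillus and Neurospora are known to be needed for cellulase induction, when cellodextrins released from cellulose reach the cell through dedicated transporters. Secreted cellulases, xylanases and pectinases release the sugars that these fungi take up, and much of their protein output passes through the secretory pathway.

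Levels are the authors' FPKM, fragments per kilobase of transcript scaled to the mapped total of a library, which have no counts behind them here, so depth is unknown. Each was tested as log2(FPKM + 1), which understates the change of low genes, and a gene is called when its Benjamini-Hochberg adjusted p in limma, two-sided, was below 0.05. Values of a strain stand in the order of its replicates 1, 2 and 3, and a fold is the ratio of strain means of FPKM. Summed FPKM lay between 776855 and 818898 in the 6 libraries, and 9702 to 9724 genes had a value above 0.

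The second library of the clrB deletion, replicate 2, differed from both others. Across genes, log2(FPKM + 1) correlated at 0.991 between deletion replicates 1 and 3, at 0.946 and 0.957 between replicate 2 and each of these, and at 0.942 to 0.952 between replicate 2 and the wild type libraries. The wild type libraries correlated with one another at 0.984 to 0.991. Counts of calls are therefore given with and without replicate 2. Without it, 422 genes rose and 358 fell at least 2-fold. On a scale where 0 is the wild type mean and 1 the mean of deletion replicates 1 and 3, replicate 2 had a median position of 0.31 over those that rose and 0.49 over those that fell. It lay on the same side of the wild type mean as the other deletion libraries for 321 of the 422 and for 299 of the 358. What set this library apart was not tested.

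**Figure D1:**
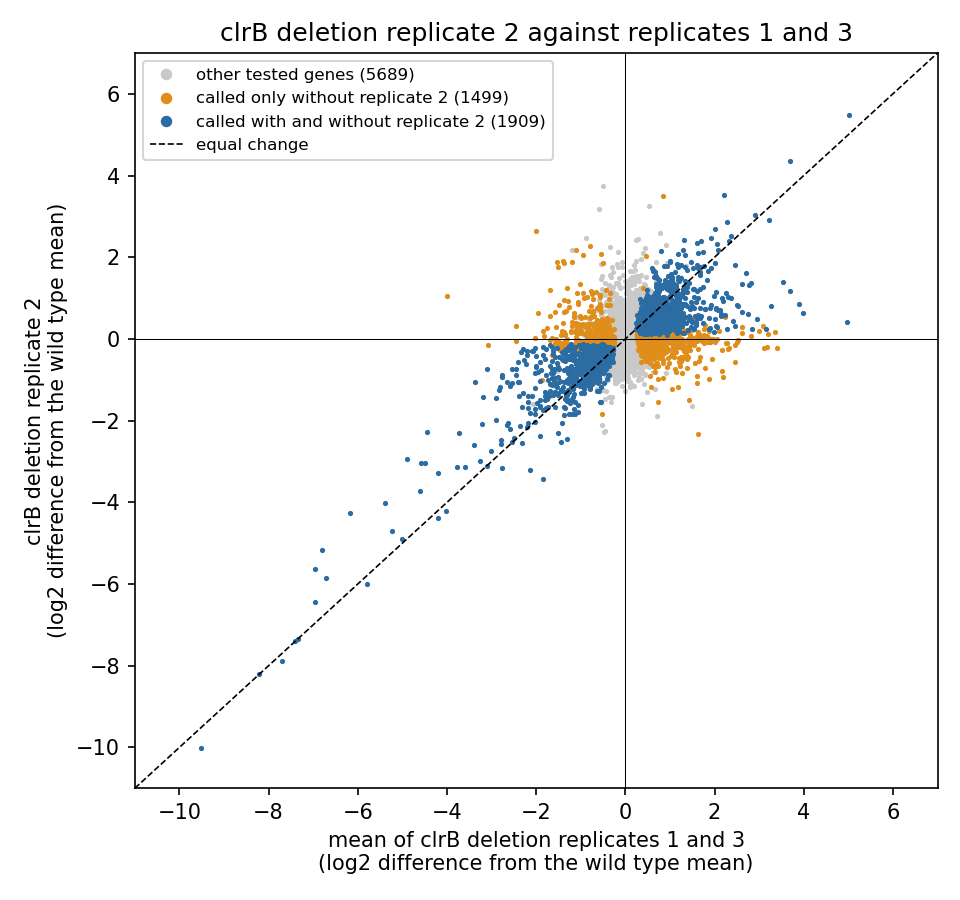
Log2 difference from the wild type mean in clrB deletion replicate 2 (vertical axis) against that in the mean of replicates 1 and 3 (horizontal axis), 1 point per tested gene, coloured by whether limma called it. The strongest falls lie near the dashed line of equal change, while most genes that rose in replicates 1 and 3 lie below it, with a median position of 0.31 for rises of at least 2-fold.

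The deleted gene itself checked the labels. The gene described as ClrB (PDE_05999) had 191, 200.2 and 163 FPKM in wild type and 0.11, 0.11 and 0.08 FPKM in the deletion, so all 3 deletion libraries, replicate 2 included, were nearly without it (log2 change -7.40, SE 0.11, adjusted p = 1.02e-09). No fold is given, because the deletion libraries were below 1 FPKM.

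Of 9097 tested genes 1987 (21.8%) were called, 1230 of them higher in the deletion (13.5%) and 757 lower (8.32%). Without replicate 2, 3409 of 9088 (37.5%) were called, 2195 higher (24.2%) and 1214 lower (13.4%). In the same direction, 1909 genes were called in both fits, while 1500 were called without replicate 2 only and 78 with it only. The balance depends on scaling: 61.9% of calls were higher as deposited, against 49.9% after setting library medians equal (10.2% of tested genes higher), 46.4% with trimmed mean factors (9.31% higher, of 20.1% called) and 49.2% after quantile normalization, although no scaling moved the median log2 change of all tested genes, 0.08, by more than 0.1. Leaving out 1 of the other 5 libraries gave between 724 calls (without deletion replicate 3) and 1327 (without deletion replicate 1). In the former 389 of 9090 tested genes rose and 335 fell, in the latter 760 of 9085 rose and 567 fell. Without wild type replicate 1, 491 of 9086 rose and 382 fell. The lowest counts of lists below are to be read against the totals of the same fit. Where a gene is given as not called without some libraries, each was left out alone and the highest adjusted p is printed. For lists with many rises the range of the count over these 3 scalings is given, and where leaving out 1 of the other 5 libraries lowered a count of a list by over 1.5 times, the lowest count is given. Examples among the abundant members of lists, and those in runs seen without replicate 2 only, were added after their values were seen. In or outside lists, genes taken by rule as the largest changes with all libraries, transcription factors aside, had to be without overlap between strains. Their non-overlap was fixed by that choice and lends no support. All 3 deletion libraries lay above all wild type libraries for 2211 genes (24.3%) and below them for 1328 (14.6%). At least 2-fold changes were called for 205 genes higher (2.25%) and 230 lower (2.53%).

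**Figure D2:**
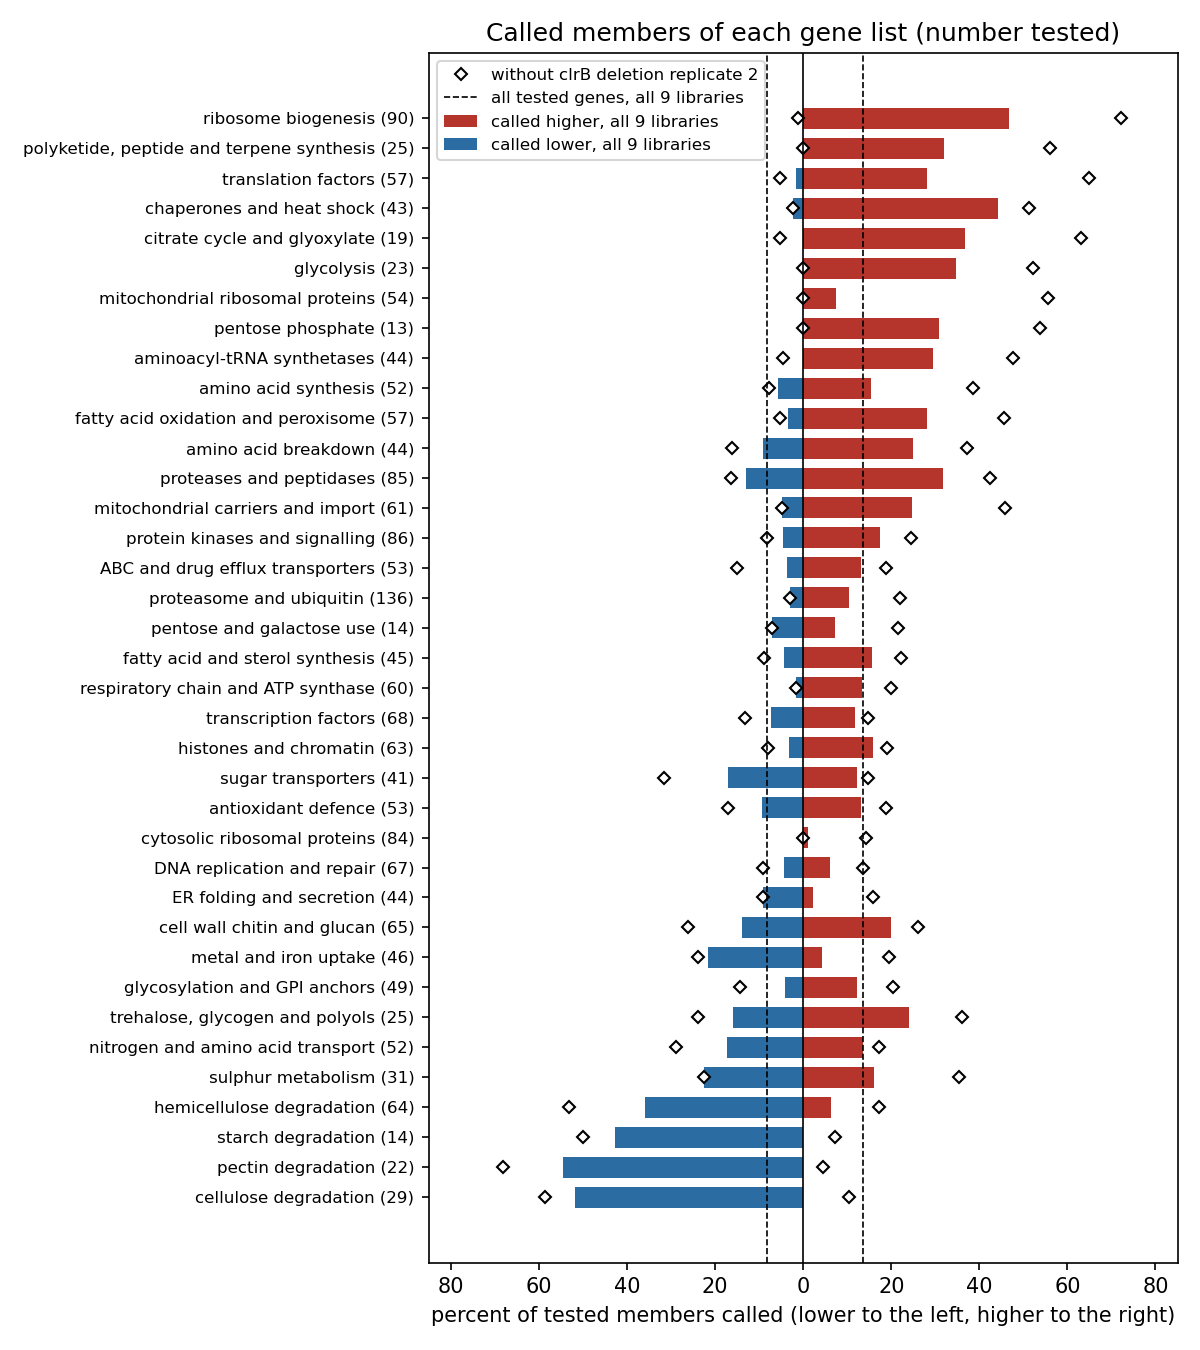
Percent of tested members of each gene list called lower (bars to the left) or higher (bars to the right) in the clrB deletion with all 9 libraries, for the lists with at least 10 tested members, ordered by median log2 change. Diamonds give the percent without replicate 2, and dashed lines the 8.32% and 13.5% of all tested genes. Ribosome biogenesis and the chaperones reach furthest to the right, and pectin and cellulose degradation furthest to the left.

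Called enzymes of cellulose breakdown all fell with all libraries. Of 29 tested members of the list, 15 fell and 0 rose with all libraries, and 17 fell and 3 rose without replicate 2. The lowest count of falls was 14 without deletion replicate 3. The lytic monooxygenase Cel61A (PDE_05633), which cuts cellulose by oxidation, read 4514, 4322 and 3896 FPKM in wild type and 4.51, 3.09 and 5.14 FPKM in the deletion, a 999-fold fall. Replicate 2 was the lowest of the deletion libraries there. The cellobiohydrolase PDE_07945, which cuts cellobiose from chain ends, read 7355, 7377 and 5499 FPKM in wild type and 259.6, 812 and 342 FPKM in the deletion, a 14.3-fold fall with all libraries and 22.4-fold without replicate 2, which was here the highest of its strain. The summed FPKM of the list was 28063, 26658 and 20147 in wild type and 1268, 2998 and 1454 in the deletion. Among other genes for cellulose use, PDE_02102, described as a protein with a fungal cellulose binding domain, fell from 1124, 1061 and 1013 to 7.65, 17.5 and 11.01 FPKM (log2 change -6.42, SE 0.23, adjusted p = 4.82e-07).

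Transport of sugars into the cell changed at individual transporters in both directions. Of 41 tested sugar transporters 7 fell (17.1%) and 5 rose (12.2%), the rises being near the background. Without replicate 2, 13 fell and 6 rose. Leaving out 1 other library gave as few as 2 rises without wild type replicate 1 and 4 falls without deletion replicate 1. The cellodextrin transporter CdtC (PDE_00607), which another automated entry calls a guanine deaminase, read 3106, 2694 and 2010.0 FPKM in wild type and 15.1, 14.7 and 14.7 FPKM in the deletion, a 176-fold fall in which the deletion libraries differed by less than 1 FPKM. A transporter described as a general alpha glucoside:H+ symporter (PDE_06576) read 371, 289 and 207 FPKM in wild type and 10.1, 20.3 and 11.3 FPKM in the deletion (log2 change -4.31, SE 0.26, adjusted p = 2.00e-05). The putative cellodextrin transporter CdtD (PDE_00753), named after its values were seen, fell as well, but replicate 2 was intermediate: it read 1264, 1066 and 791 FPKM in wild type and 136, 453 and 153 FPKM in the deletion. A small rise was called for PDE_04131, a sugar:H+ symporter with 7.16, 8.13 and 8.23 FPKM in wild type and 16.6, 19.5 and 16.5 FPKM in the deletion.

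Replicate 2 kept the wild type level of several other transporters. The sugar:H+ symporter PDE_09377 had 3667, 3399 and 3444 FPKM in wild type and 1592, 3861 and 1773 FPKM in the deletion, so that it was not called with all libraries (adjusted p = 0.136) and fell without replicate 2 (log2 change -1.06, SE 0.13, adjusted p = 4.52e-04). PDE_03571, an alpha glucoside symporter, showed the same at 265, 242 and 191 FPKM in wild type and 70.3, 233 and 74.8 FPKM in the deletion (adjusted p = 0.076 with all libraries and 8.95e-05 without replicate 2). The reverse held for PDE_03475, another sugar:H+ symporter, with 10.03, 12.6 and 22.5 FPKM in wild type and 718, 19.4 and 319 FPKM in the deletion: deletion replicates 1 and 3 were far above every wild type library and replicate 2 was within their range. Its call rested on the libraries fitted (adjusted p = 0.047 with replicate 2, 2.54e-05 without). PDE_03475 was not called without deletion replicates 1 or 3 or wild type replicates 1, 2 or 3 (adjusted p up to 0.156).

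Among enzymes against hemicellulose, pectin and starch, polymers of the wheat bran, most called genes fell. Of 64 tested hemicellulose genes 23 fell (35.9%) and 4 rose (6.25%), the rises being below the background. Without replicate 2, 34 fell and 11 rose. As few as 17 fell without deletion replicate 3, and 2 rose without wild type replicate 1. The family 10 xylanase PDE_08094 read 2368, 2199 and 1344 FPKM in wild type and 56.1, 248 and 71.8 FPKM in the deletion. The feruloyl esterase PDE_06649, which frees ferulate from xylan, read 1635, 1402 and 968 FPKM in wild type and 53.97, 159 and 52.5 FPKM in the deletion. In both genes all deletion libraries lay below every wild type library, and replicate 2 was above the other deletion libraries. Small rises were called for the arabinofuranosidase PDE_06546 (log2 change 0.62) and for PDE_09014, described as a xyloglucan-specific glucanase (log2 change 0.67). PDE_06546 was not called without deletion replicate 3 or wild type replicate 1 (adjusted p up to 0.0519).

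Pectin degradation had 12 falls and 0 rises among 22 tested members (15 and 1 without replicate 2, and as few as 6 without deletion replicate 1 for the falls), and its median log2 change was -0.77. The summed level of the list was 925, 869 and 847 FPKM in wild type and 897, 544 and 909 FPKM in the deletion. In that sum only replicate 2 lay below every wild type library, so the total did not fall as the called genes did. The rhamnogalacturonan lyase PDE_01385, which cleaves the branched part of pectin, read 52.7, 41.8 and 33.7 FPKM in wild type and 5.28, 6.20 and 5.13 FPKM in the deletion (log2 change -2.72, SE 0.18, adjusted p = 3.16e-05). The endopolygalacturonase PDE_04162, which cuts inside the galacturonate backbone, read 121, 119 and 92.7 FPKM in wild type and 16.6, 24.6 and 16.8 FPKM in the deletion. The polygalacturonase PDE_03218 read 96.5, 77.5 and 68.8 FPKM in wild type and 15.2, 26.9 and 18.4 FPKM in the deletion. In these 3 genes replicate 2 was near the other deletion libraries and the strains did not overlap. PDE_06891, an exopolygalacturonase, was unlike them: its 7.54, 49.5 and 9.62 FPKM in the deletion put replicate 2 among the wild type libraries, at 71.6, 62.7 and 30.2 FPKM, and it was called without replicate 2 only (adjusted p = 0.079 with it and 5.99e-04 without).

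Starch degradation had 6 falls and 0 rises among 14 tested genes (7 and 1 without replicate 2). A protein with a starch binding and a chitin binding domain (PDE_01354) fell 5.29-fold, from 1172, 1058 and 826 to 199.5, 172 and 205 FPKM. The alpha-glucosidase PDE_03966, which releases glucose from starch fragments, read 165, 152 and 159 FPKM in wild type and 63.8, 42.7 and 56.6 FPKM in the deletion (log2 change -1.55, SE 0.14, adjusted p = 2.04e-04). The glucoamylase Amy15A (PDE_09417), whose product is glucose, fell less, with 1845, 1716 and 1475 FPKM in wild type and 1032, 1069 and 1176 FPKM in the deletion (log2 change -0.62, SE 0.15, adjusted p = 0.0226). All 3 deletion libraries were below all wild type libraries in each of the 3 genes. PDE_09417 was not called without deletion replicates 1 or 3 or wild type replicates 1 or 2 (adjusted p up to 0.0801).

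Further carbohydrate-active enzymes outside these lists fell. The family 45 protein PDE_07928 read 2378, 2082 and 1621 FPKM in wild type and 24.5, 104 and 29.1 FPKM in the deletion. The exo-beta-1,3-galactanase PDE_01468, of a kind that acts on arabinogalactans, read 33.8, 37.8 and 28.8 FPKM in wild type and 0.09, 0.15 and 0.03 FPKM in the deletion. For the carbohydrate acetylesterase PDE_05194 the levels were 196, 160.0 and 96.8 FPKM in wild type and 6.56, 14.1 and 7.34 FPKM in the deletion. The beta-1,6-glucanase PDE_02004, a kind of enzyme that attacks fungal glucan, fell 6.93-fold, from 160.4, 126 and 147 to 14.96, 33.5 and 14.1 FPKM. Replicate 2 was the highest deletion library in all 4, yet below every wild type library.

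Many chaperones, the proteins that keep other proteins folded, rose. Of 43 tested members 19 rose (44.2%) and 1 fell, with 18 to 19 rises under the other scalings, and without replicate 2 22 rose. The count lay between 12 (without deletion replicate 3) and 16 (without wild type replicate 3) when 1 of the other 5 libraries was left out. The small heat shock protein PDE_02505 of the HSP20 family, which binds unfolding proteins, had the largest rise of all genes that met the naming rule: it read 40.3, 34.99 and 44.1 FPKM in wild type and 1246, 1807 and 1385 FPKM in the deletion, a 37.2-fold rise (log2 change 5.17, SE 0.21, adjusted p = 1.18e-06). A second HSP20 gene, PDE_00175, read 328, 367 and 245 FPKM in wild type and 871, 1145 and 854 FPKM in the deletion (log2 change 1.61, SE 0.25, adjusted p = 0.00384). The gene described as Fes1 (PDE_01090), known in yeast as a nucleotide exchange factor that lets Hsp70 release its substrate, rose 16.2-fold and read 17.9, 15.8 and 17.5 FPKM in wild type and 216, 368 and 247 FPKM in the deletion (log2 change 3.91, SE 0.20, adjusted p = 6.10e-06). In all 3 genes replicate 2 was the highest of all 6 libraries.

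Co-chaperones and chaperones of other families rose as well. ClpB (PDE_00624), a relative of the yeast protein that dissolves aggregates, is counted among the proteases and not in the chaperone list, and had 13.7, 16.1 and 17.1 FPKM in wild type and 42.5, 54.2 and 59.1 FPKM in the deletion (log2 change 1.66, SE 0.15, adjusted p = 2.29e-04). GrpE (PDE_08711), the exchange factor of bacterial and mitochondrial Hsp70, read 17.3, 24.1 and 23.7 FPKM in wild type and 54.6, 58.6 and 57.6 FPKM in the deletion. For the Hsp70 protein PDE_02379 the levels were 279.9, 263 and 245 FPKM in wild type and 380.2, 341 and 362 FPKM in the deletion (log2 change 0.46, SE 0.11, adjusted p = 0.0196). The Hsp40 co-chaperone PDE_02975 had 77.1, 76.6 and 79.4 FPKM in wild type and 119, 128 and 124 FPKM in the deletion (log2 change 0.66, SE 0.10, adjusted p = 0.00275). The heat shock transcription factor PDE_05764, which drives chaperone genes in other fungi, rose slightly, from 29.1, 33.4 and 30.1 to 42.9, 42.4 and 45.6 FPKM (log2 change 0.49, SE 0.08, adjusted p = 0.00614). The wild type and deletion libraries did not overlap in any of these 5 genes, and replicate 2 lay within or close to the range of the other deletion libraries. Over all members of the chaperone list that differed by at least 0.5 on the log2 scale between wild type and deletion replicates 1 and 3, its median position was 0.94, against 0.42 over all genes. One member fell, PDE_04788, described as DnaJ, with 88.3, 81.7 and 74.6 FPKM in wild type and 63.3, 54.8 and 62.5 FPKM in the deletion. PDE_02379 was not called without deletion replicates 1 or 3 or wild type replicates 2 or 3 (adjusted p up to 0.0776). PDE_04788 was not called without wild type replicate 1 (adjusted p = 0.0569).

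**Figure D3:**
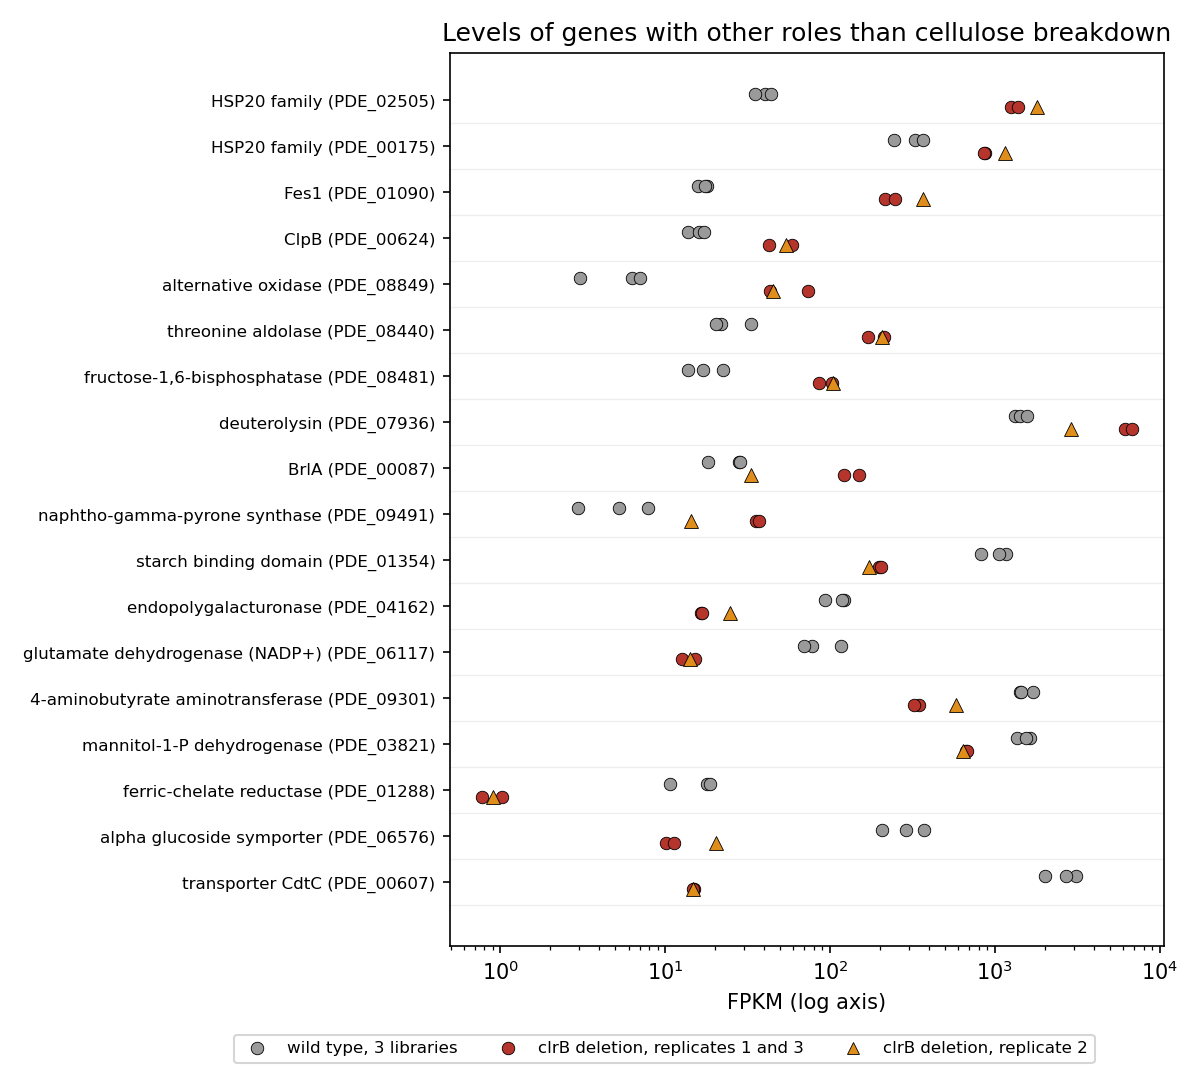
FPKM (log axis) of 18 genes outside the cellulose and hemicellulose lists in each library, with wild type in grey, clrB deletion replicates 1 and 3 in red and replicate 2 as an orange triangle. Replicate 2 sits with the other deletion libraries for the heat shock genes, alternative oxidase, threonine aldolase and fructose-1,6-bisphosphatase, and near the wild type for BrlA, where it read 33.4 FPKM.

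Replicate 2 also shared large rises of genes outside the chaperone list. The mitochondrial alternative oxidase (PDE_08849), which passes electrons from ubiquinol straight to oxygen, read 6.29, 3.04 and 7.04 FPKM in wild type and 43.04, 45.3 and 73.9 FPKM in the deletion (log2 change 3.11, SE 0.33, adjusted p = 5.32e-04). Threonine aldolase (PDE_08440), which splits threonine into glycine and acetaldehyde, read 21.9, 20.3 and 33.1 FPKM in wild type and 170.1, 208 and 212 FPKM in the deletion, a 7.85-fold rise. Fructose-1,6-bisphosphatase (PDE_08481), a step of gluconeogenesis that glycolysis does not share, read 13.8, 17.1 and 22.3 FPKM in wild type and 86.3, 104 and 102 FPKM in the deletion, a 5.51-fold rise. A gene described as RING finger protein 113A (PDE_09658) rose from 14.8, 13.01 and 18.1 to 74.7, 84.1 and 85.04 FPKM (log2 change 2.34, SE 0.15, adjusted p = 2.15e-05). In each of these 4 genes every deletion library was above every wild type library, which the naming rule required of the genes it took. Their calls held in all 18 alternative fits.

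Many genes for building ribosomes rose. Of 90 tested genes of ribosome biogenesis 42 rose (46.7%) and 0 fell, with 33 to 36 rises under the other scalings. Without replicate 2 65 rose and 1 fell. The count of rises lay between 6 (without deletion replicate 3) and 18 (without wild type replicate 3) when 1 of the other 5 libraries was left out. Over all tested genes the rises in these fits were 389 of 9090 and 737 of 9096. The list had a median log2 change of 0.58, against 0.08 for all tested genes. Its summed level was 1378, 1412 and 1428 FPKM in wild type and 2081, 1643 and 2124 FPKM in the deletion, so replicate 2 lay between the strains.

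Nucleolar protein 56 (PDE_04970), a core part of the particles that guide rRNA methylation, read 36.2, 36.6 and 39.4 FPKM in wild type and 79.3, 45.6 and 69.6 FPKM in the deletion. Its partner there, nucleolar protein 58 (PDE_05114), read 18.99, 17.4 and 20.99 FPKM in wild type and 38.8, 23.3 and 36.01 FPKM in the deletion. Fibrillarin (PDE_00286), the methyltransferase of the same particles, read 34.6, 31.3 and 40.5 FPKM in wild type and 62.7, 44.8 and 55.1 FPKM in the deletion (log2 change 0.59, SE 0.17, adjusted p = 0.0385). The processing protein EBP2 (PDE_07466), which acts on the large subunit in yeast, read 14.9, 15.02 and 14.2 FPKM in wild type and 33, 20.4 and 30.4 FPKM in the deletion (log2 change 0.86, SE 0.19, adjusted p = 0.0146). The U3 associated protein 10 (PDE_08123), which acts on the small subunit, had 5.43, 6.84 and 5.69 FPKM in wild type and 12.4, 9.45 and 14.2 FPKM in the deletion. For the U3 associated protein 13 (PDE_03677) the levels were 5.29, 6.11 and 6.27 FPKM in wild type and 15.7, 8.45 and 14.6 FPKM in the deletion. In all 6 genes the deletion libraries were above all wild type libraries and replicate 2 was the lowest of the 3 deletion libraries. PDE_04970 and PDE_03677 were not called without deletion replicates 1 or 3 or wild type replicates 1, 2 or 3 (adjusted p up to 0.107). PDE_05114 and PDE_00286 were not called without deletion replicates 1 or 3 or wild type replicates 1 or 2 (adjusted p up to 0.119). PDE_07466 was not called without deletion replicate 3 (adjusted p = 0.0619). PDE_08123 was not called without deletion replicate 3 or wild type replicate 1 (adjusted p up to 0.0538).

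Translation factors had 16 rises and 1 fall among 57 tested members (10 to 12 rises under the other scalings, 4 without deletion replicate 3), and 37 rises and 3 falls without replicate 2. Initiation factor 4B (PDE_07770) read 29.3, 28.7 and 34.5 FPKM in wild type and 48.2, 50.6 and 52.1 FPKM in the deletion (log2 change 0.69, SE 0.12, adjusted p = 0.00545). PDE_09306, described as the kinase of initiation factor 2-alpha known as Gcn2 in yeast, which responds to amino acid shortage, read 22.8, 29.5 and 26.1 FPKM in wild type and 42.4, 49.3 and 49.5 FPKM in the deletion (log2 change 0.83, SE 0.12, adjusted p = 0.00274). Aminoacyl-tRNA synthetases, which charge tRNAs, had 13 rises and 0 falls among 44 (11 to 12 rises under the other scalings, 2 without deletion replicate 3, 21 rises and 2 falls without replicate 2), led by the aspartyl enzyme PDE_06337 with 6.62, 8.06 and 8.64 FPKM in wild type and 18.5, 21.5 and 27.01 FPKM in the deletion.

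Ribosomal proteins of the cytosol were called in 1 of 84 cases, below the background, and their median log2 change was 0.02. Without replicate 2 12 rose (14.3%), below the 24.2% of all tested genes in that fit. The median of the list was then 0.31, against 0.10 for all tested genes. The summed level of the list was 20788, 16002 and 17690.4 FPKM in wild type and 25076, 12826 and 19468 FPKM in the deletion, so that the lowest and the highest library were both of the deletion. The called member was PDE_05375, described as L24e, with 17.8, 17.6 and 19.01 FPKM in wild type and 40.9, 35.5 and 39.9 FPKM in the deletion. Mitochondrial ribosomal proteins had 4 rises among 54 (7.41%) with all libraries, below the 13.5% of all tested genes. Without replicate 2 they had 30 (55.6%), and their median log2 change was 0.36. For the mitochondrial list the count lay between 1 (without deletion replicate 1) and 2 (without wild type replicate 1) when 1 of the other 5 libraries was left out.

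**Figure D4:**
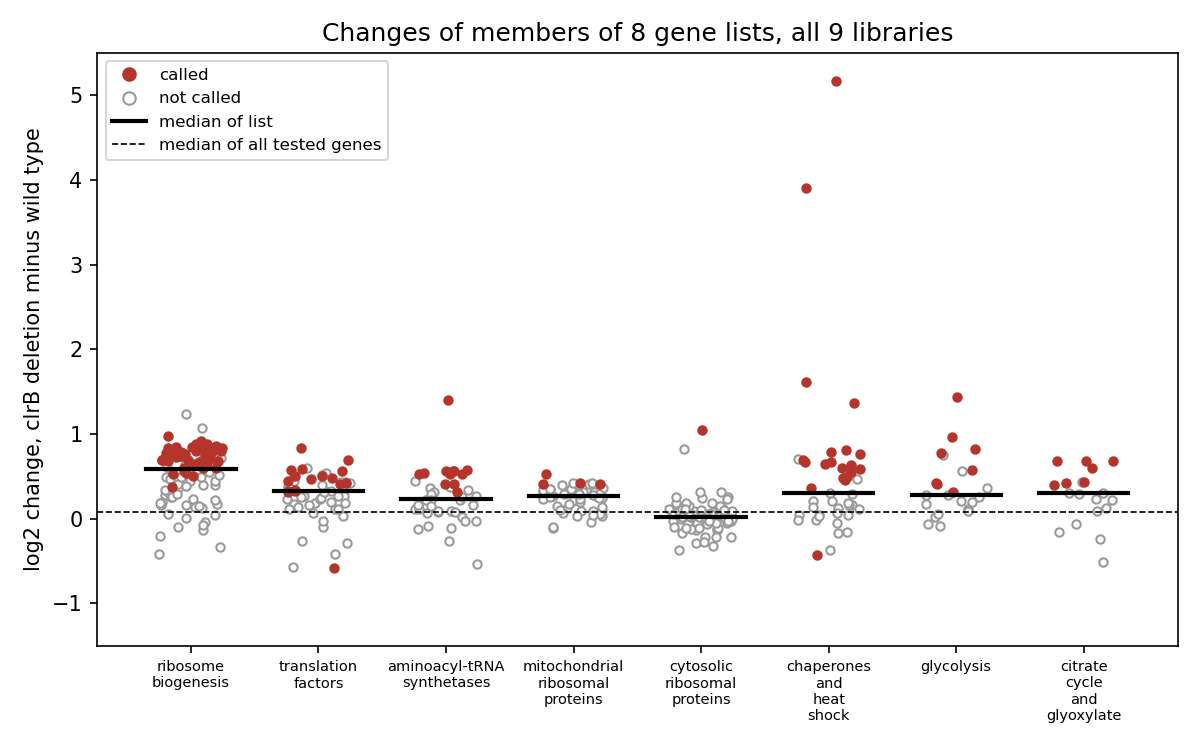
Log2 change between the clrB deletion and wild type of each tested member of 8 gene lists, with called genes filled, the list median as a bar and the median of all tested genes, 0.08, as a dashed line. The bulk of ribosome biogenesis genes lies above the dashed line, and cytosolic ribosomal proteins lie around it.

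In central carbon metabolism every called gene of glycolysis and of the pentose phosphate pathway rose. Glycolysis had 8 rises and 0 falls among 23 tested genes (12 rises without replicate 2, 6 to 7 under the other scalings, 2 without deletion replicate 3), the citrate and glyoxylate cycles 7 rises and 0 falls among 19 (12 rises and 1 fall without replicate 2, 6 to 7 rises under the other scalings, 5 without deletion replicate 3), and the pentose phosphate pathway 4 rises among 13 (7 without replicate 2, 3 to 4 under the other scalings, 2 without deletion replicate 3). PDE_08226, one of several genes described as hexokinase, the enzyme that traps glucose in the cell, read 21.1, 20.98 and 24.7 FPKM in wild type and 86.2, 37.3 and 72.9 FPKM in the deletion (log2 change 1.44, SE 0.29, adjusted p = 0.011). Fructose-bisphosphate aldolase (PDE_04802), which acts in both glycolysis and gluconeogenesis, read 337, 275 and 309 FPKM in wild type and 509.9, 419.6 and 441 FPKM in the deletion (log2 change 0.57, SE 0.13, adjusted p = 0.0151). PDE_04802 was not called without deletion replicate 3 or wild type replicate 2 (adjusted p up to 0.0559).

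In the glyoxylate bypass, which lets fungi grow on acetyl-CoA, isocitrate lyase (PDE_03451) read 33.97, 30.8 and 33.3 FPKM in wild type and 58.2, 44.2 and 48.7 FPKM in the deletion (log2 change 0.60, SE 0.11, adjusted p = 0.00699). Malate synthase (PDE_03483), the next enzyme, read 102, 81.5 and 121 FPKM in wild type and 163, 179.7 and 143 FPKM in the deletion (log2 change 0.68, SE 0.15, adjusted p = 0.0139). Citrate synthase PDE_03487 read 46.6, 48.5 and 51.8 FPKM in wild type and 86.4, 72.7 and 79.03 FPKM in the deletion. The 2-oxoglutarate dehydrogenase subunit E1 (PDE_08580) had 111, 115 and 139.6 FPKM in wild type and 193, 175 and 217 FPKM in the deletion. Of the pentose phosphate pathway, transketolase (PDE_00194) had 36.8, 36.9 and 36.2 FPKM in wild type and 68.9, 44.4 and 59.2 FPKM in the deletion. Ribose 5-phosphate isomerase (PDE_09115) had 20.7, 20.2 and 22.1 FPKM in wild type and 33.1, 43.9 and 34.6 FPKM in the deletion. Each of these 6 genes was called, and the strains did not overlap, which the naming rule required of the genes it took. PDE_00194 was not called without deletion replicate 3 or wild type replicates 1, 2 or 3 (adjusted p up to 0.0761).

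Mitochondrial carriers and import proteins, which move metabolites and proteins across the inner membrane, had 15 rises and 3 falls among 61 (10 to 11 rises under the other scalings, 3 without deletion replicate 3, 28 rises and 3 falls without replicate 2). The adenine nucleotide carrier PDE_02785, which exchanges ADP and ATP, read 344, 291 and 333 FPKM in wild type and 617, 409 and 567 FPKM in the deletion (log2 change 0.70, SE 0.16, adjusted p = 0.0194). The phosphate carrier PDE_00444 read 101, 103 and 109.7 FPKM in wild type and 169, 177 and 172 FPKM in the deletion (log2 change 0.72, SE 0.10, adjusted p = 0.00266). The oxoglutarate carrier PDE_08879 fell, and replicate 2 was closest to the wild type, with 269, 267 and 262 FPKM in wild type and 105, 229 and 112 FPKM in the deletion. The respiratory chain and ATP synthase were close to the background, with 8 rises (13.3%) and 1 fall among 60, as few as 1 rise and 0 falls without deletion replicate 3. Without replicate 2, 12 of their genes rose and 1 fell. PDE_02785 was not called without deletion replicates 1 or 3 or wild type replicate 2 (adjusted p up to 0.0801). PDE_08879 was not called without deletion replicates 1 or 3 or wild type replicates 1, 2 or 3 (adjusted p up to 0.127).

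Fatty acid oxidation and peroxisome genes had 16 rises and 2 falls among 57 (9 to 11 rises under the other scalings, 1 without deletion replicate 3, 26 rises and 3 falls without replicate 2). The acyl-CoA dehydrogenase PDE_05566, a first step of beta-oxidation, read 259.5, 311 and 421 FPKM in wild type and 670.5, 488 and 679.9 FPKM in the deletion (log2 change 0.90, SE 0.19, adjusted p = 0.0134). The thiolase PDE_08405, its last step, read 145, 132 and 214 FPKM in wild type and 264, 289 and 221 FPKM in the deletion. A carnitine carrier (PDE_02645) and peroxin-3 (PDE_09293), which helps form peroxisome membranes, fell, with log2 changes of -0.70 and -0.57. Synthesis of fatty acids and sterols had 7 rises (15.6%) and 2 falls (4.44%) among 45, close to the background. The synthesis list had 10 rises and 4 falls without replicate 2, and as few as 2 rises without deletion replicate 3. It held a fall of the stearoyl-CoA desaturase PDE_02205 from 145, 128 and 117 to 68.01, 83.6 and 74.04 FPKM, an enzyme that makes oleate. PDE_05566 was not called without deletion replicate 3 (adjusted p = 0.0577). PDE_08405 was not called without deletion replicate 1 or wild type replicates 1 or 2 (adjusted p up to 0.0972).

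Storage and polyol genes changed in both directions, with 6 rises (24%) and 4 falls (16%) among 25, and as few as 2 rises and 2 falls without deletion replicate 3. Without replicate 2, 9 rose and 6 fell. Mannitol-1-phosphate dehydrogenase (PDE_03821), which makes the precursor of mannitol from fructose 6-phosphate, read 1623, 1369.8 and 1548 FPKM in wild type and 667, 642 and 680.4 FPKM in the deletion, a 2.28-fold fall in which deletion libraries, replicate 2 included, differed little (log2 change -1.19, SE 0.13, adjusted p = 6.34e-04). Trehalose-phosphate synthase (PDE_05219) rose, with 35.4, 41.9 and 45.7 FPKM in wild type and 69.4, 62.7 and 71 FPKM in the deletion (log2 change 0.72, SE 0.14, adjusted p = 0.0103). UDP-glucose 4-epimerase (PDE_01637), which links galactose to glucose metabolism, is counted in pentose and galactose use. It fell 4.36-fold, from 103, 94.7 and 143 to 19.9, 34.5 and 23.8 FPKM.

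Nitrogen metabolism held large changes in both directions. NADP-dependent glutamate dehydrogenase (PDE_06117), which fixes ammonium into glutamate, read 116, 78.04 and 69.5 FPKM in wild type and 15.1, 14.2 and 12.6 FPKM in the deletion, a 6.28-fold fall (log2 change -2.54, SE 0.19, adjusted p = 7.50e-05). Glutamine synthetase (PDE_04219), the other ammonium fixing enzyme, rose instead, with 22.98, 24.02 and 29.8 FPKM in wild type and 55.7, 34.9 and 59.6 FPKM in the deletion (log2 change 0.91, SE 0.19, adjusted p = 0.0121). The 4-aminobutyrate aminotransferase PDE_09301, which breaks down GABA, read 1713, 1426 and 1443 FPKM in wild type and 348, 578 and 322 FPKM in the deletion, a 3.67-fold fall. In all 3 genes the strains did not overlap. Over the lists, amino acid synthesis had 8 rises (15.4%) and 3 falls (5.77%) among 52, close to the background, with as few as 1 rise without deletion replicate 3, and 20 rises and 4 falls without replicate 2. Amino acid breakdown had 11 rises (25%) and 4 falls (9.09%) among 44 (16 and 7 without replicate 2). PDE_04219 was not called without deletion replicate 3 or wild type replicate 1 (adjusted p up to 0.0512).

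Transporters of nitrogen compounds had 7 rises (13.5%) and 9 falls (17.3%) among 52, so that only the falls exceeded the background. The counts were 9 and 15 without replicate 2, and as few as 3 and 4 without deletion replicate 3. The oligopeptide transporters went both ways. PDE_05534 fell and read 1521, 1563 and 1849.7 FPKM in wild type and 562, 1215 and 609 FPKM in the deletion, with replicate 2 between the strains. PDE_06899 rose and read 402, 281 and 272 FPKM in wild type and 480.0, 749.5 and 571 FPKM in the deletion. PDE_05978 rose 2.68-fold and read 40.8, 45.5 and 34.9 FPKM in wild type and 82.7, 138 and 103 FPKM in the deletion. Replicate 2 was the highest of the 6 libraries in both rises. PDE_05534 was not called without deletion replicates 1 or 3 or wild type replicates 1, 2 or 3 (adjusted p up to 0.0879). PDE_06899 was not called without wild type replicate 2 (adjusted p = 0.0513).

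Sulphur assimilation was split too, with 5 rises (16.1%) and 7 falls (22.6%) among 31 genes, the rises being near the background. The counts were 11 and 7 without replicate 2. As few as 3 rose without deletion replicate 1, and 3 fell without wild type replicate 1. The sulfate permease PDE_00892, the entry of sulphate into the cell, rose and read 75.96, 62.9 and 75.97 FPKM in wild type and 153, 195 and 173 FPKM in the deletion (log2 change 1.26, SE 0.16, adjusted p = 0.00148). Sulfite reductase (PDE_08788), which makes sulphide, fell, with 24.02, 14.5 and 21.1 FPKM in wild type and 8.38, 7.98 and 7.75 FPKM in the deletion. The O-acetylhomoserine sulfhydrylase PDE_09141, which builds that sulphide into homocysteine, is counted in amino acid synthesis. It fell too, with 19.4, 13.1 and 18.9 FPKM in wild type and 7.76, 5.09 and 6.71 FPKM in the deletion. The wild type libraries differed more among themselves in these 2 genes than the deletion libraries did, and the strains did not overlap.

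Proteases were called in both directions, 27 higher (31.8%) and 11 lower (12.9%) of 85 tested, with 21 rises under the other scalings, as few as 9 rises and 4 falls without deletion replicate 3, and 36 rises and 14 falls without replicate 2. The deuterolysin PDE_07936, a metalloprotease, read 1321, 1425 and 1558 FPKM in wild type and 6192, 2879.8 and 6752 FPKM in the deletion, a 3.68-fold rise with all libraries and 4.51-fold without replicate 2. The aspergillopepsin PDE_07927, an acid protease, fell and read 7029.6, 6725 and 8721 FPKM in wild type and 4354, 3758 and 4183 FPKM in the deletion (log2 change -0.86, SE 0.21, adjusted p = 0.0207). A second aspergillopepsin, PDE_07344, read 165, 256 and 339 FPKM in wild type and 36.4, 116 and 39.4 FPKM in the deletion, and replicate 2 was again nearer the wild type. A gene described as pappalysin-1 (PDE_02342), a metalloprotease not counted in that list, read 18.4, 23.02 and 24.03 FPKM in wild type and 206, 25.6 and 198 FPKM in the deletion: it was 9.28-fold higher without replicate 2, which was close to the wild type. PDE_07927 was not called without deletion replicate 3 or wild type replicates 1 or 3 (adjusted p up to 0.0729). PDE_07344 was not called without deletion replicate 3 or wild type replicates 2 or 3 (adjusted p up to 0.0678). PDE_02342 was not called without deletion replicates 1 or 3 or wild type replicates 1, 2 or 3 (adjusted p up to 0.154).

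Among 46 metal uptake genes 10 fell (21.7%) and 2 rose (4.35%), and without replicate 2 11 fell and 9 rose. Leaving out 1 other library gave as few as 0 rises and 2 falls without deletion replicate 3. The ferric-chelate reductase PDE_01288, which reduces iron for uptake, went from 17.9, 18.8 and 10.7 to 0.78, 0.90 and 1.03 FPKM (log2 change -3.10, SE 0.20, adjusted p = 2.41e-05). The zinc transporter PDE_05347 fell, with 12.6, 11.2 and 9.40 FPKM in wild type and 6.26, 6.97 and 4.37 FPKM in the deletion. The multicopper oxidases PDE_02128 and PDE_09492 were higher in deletion replicates 1 and 3 and within or below the wild type range in replicate 2. PDE_02128 read 224, 367 and 349.8 FPKM in wild type and 779, 193 and 668 FPKM in the deletion. PDE_09492 read 10.3, 22.2 and 16.6 FPKM in wild type and 99.04, 19.9 and 83.98 FPKM in the deletion. Of these PDE_02128 was called without replicate 2 only (adjusted p = 0.363 with it and 0.00155 without). PDE_09492 was not called without deletion replicates 1 or 3 or wild type replicates 1, 2 or 3 (adjusted p up to 0.152).

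Antioxidant genes had 7 rises (13.2%) and 5 falls (9.43%) among 53, close to the background in both directions, and as few as 1 fall without deletion replicate 3. Without replicate 2, 10 rose and 9 fell. Single members are given as values of their own. Catalase (PDE_05708), which breaks down hydrogen peroxide, rose and read 11.2, 12.3 and 13.5 FPKM in wild type and 31.02, 30.1 and 32.3 FPKM in the deletion (log2 change 1.27, SE 0.17, adjusted p = 0.00193). Thioredoxin (PDE_07626) rose from 19.8, 20.7 and 21.7 to 37.9, 33.8 and 44.4 FPKM. Glutathione synthase (PDE_07454) fell, with 2688, 2486 and 2791 FPKM in wild type and 1331, 1361 and 1480.0 FPKM in the deletion (log2 change -0.93, SE 0.19, adjusted p = 0.0105). The strains did not overlap in these 3 genes, and replicate 2 was near the other deletion libraries.

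Cell wall genes of chitin and glucan had 13 rises (20%) and 9 falls (13.8%) among 65. The counts were 17 and 17 without replicate 2, and as few as 6 and 5 without deletion replicate 3. The chitinase PDE_01779, which degrades chitin, rose, with 4.42, 5.25 and 4.69 FPKM in wild type and 40.4, 13.5 and 36.8 FPKM in the deletion. A second chitinase, PDE_04326, read 7.68, 11.6 and 9.52 FPKM in wild type and 47.8, 14.9 and 42.4 FPKM in the deletion. The exo-beta-1,3-glucanase PDE_08250, which is not counted in that list, rose from 2.58, 2.50 and 2.09 to 32.3, 4.95 and 30.7 FPKM. In these 3 genes replicate 2 was above every wild type library but far below the other deletion libraries. A protein with a chitin binding domain (PDE_06567) fell, with 33, 33.96 and 25.9 FPKM in wild type and 3.26, 7.07 and 3.30 FPKM in the deletion (log2 change -2.59, SE 0.23, adjusted p = 2.23e-04). PDE_04326 was not called without deletion replicates 1 or 3 or wild type replicates 1 or 3 (adjusted p up to 0.0776). PDE_08250 was not called without deletion replicate 3 or wild type replicates 1, 2 or 3 (adjusted p up to 0.0683).

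Conidia and conidiophores are other cells that a mycelium can hold. Descriptions named 7 genes of that kind, 6 of them tested. Of these 2 rose with all libraries, 3 without replicate 2 and 0 without deletion replicate 1. BrlA (PDE_00087), which starts conidiophore formation in Aspergillus, read 18.2, 27.9 and 28.5 FPKM in wild type and 149, 33.4 and 121 FPKM in the deletion (log2 change 1.76, SE 0.47, adjusted p = 0.0294). FlbD (PDE_03008), a Myb-like protein upstream of it there, read 109, 207 and 220.1 FPKM in wild type and 370.1, 242 and 356 FPKM in the deletion. The scytalone dehydratase PDE_04496, of melanin synthesis, read 36.5, 56.1 and 43.4 FPKM in wild type and 200.2, 44.98 and 152 FPKM in the deletion. The summed level of the 7 genes was 174, 307 and 312 FPKM in wild type and 731, 335 and 640.1 FPKM in the deletion, with replicate 2 close to the wild type. Nearly all of that sum came from BrlA, FlbD and the scytalone dehydratase. The other members added little in any library, so the sum does not show a rise of the whole set. A second gene described as BrlA (PDE_00079) was too low to be tested, and no description named abaA, wetA or rodA. More cells of such a type and more RNA per cell cannot be told apart in these samples, and the part of conidiation in the other changes was not tested. PDE_00087 was not called without deletion replicates 1 or 3 or wild type replicates 1, 2 or 3 (adjusted p up to 0.109). PDE_03008 was not called without deletion replicates 1 or 3 or wild type replicates 1 or 2 (adjusted p up to 0.153).

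Of 25 tested genes for polyketide, peptide and terpene synthesis 8 rose (32%) and 0 fell (7 to 8 rises and 1 fall under the other scalings, 2 without deletion replicate 3), and 14 rose without replicate 2. The summed conidiation markers, mostly BrlA, FlbD and the scytalone dehydratase, were also highest in deletion replicates 1 and 3. The part of conidiation in these values was not tested. The naphtho-gamma-pyrone polyketide synthase PDE_09491, of a family that makes pigments, read 2.98, 7.92 and 5.27 FPKM in wild type and 35.3, 14.4 and 36.9 FPKM in the deletion (log2 change 2.19, SE 0.41, adjusted p = 0.00801), and replicate 2 was between the strains.

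Consecutive gene identifiers, which in such annotations usually follow the order along a chromosome, were called as a few runs of rises and of falls. A run is at least 4 consecutive identifiers all called in 1 direction with at least a 2-fold change. With all libraries 1 run rose, from PDE_01067 to PDE_01071 (5 genes), and 2 fell, from PDE_00012 to PDE_00016 (5 genes) and from PDE_03927 to PDE_03930 (4 genes). Without replicate 2, where 4.64% of genes rose and 3.94% fell at least 2-fold, 6 runs rose and 5 fell. Every gene of the rising run lost its call when deletion replicate 1, deletion replicate 3 or wild type replicate 1 was left out. No coordinates could be assigned to these identifiers, so that neighbours on a chromosome are not shown. PDE_01067 and PDE_01071 were not called without deletion replicates 1 or 3 or wild type replicates 1 or 3 (adjusted p up to 0.11). PDE_00016 was not called without deletion replicates 1 or 3 or wild type replicates 1, 2 or 3 (adjusted p up to 0.131).

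The run from PDE_01067 contains PDE_01071, described as brevianamide F synthase, a peptide synthetase that in Aspergillus fumigatus joins tryptophan and proline, at 0.87, 3.53 and 1.86 FPKM in wild type and 14.6, 4.18 and 16.5 FPKM in the deletion. Its neighbours by number were a methyltransferase (PDE_01069) at 21.3, 28.3 and 28.8 FPKM in wild type and 107, 31.3 and 91.6 FPKM in the deletion, and a cytochrome P450 (PDE_01070). The latter read 5.90, 12.04 and 8.65 FPKM in wild type and 40.8, 10.7 and 36.6 FPKM in the deletion. Without replicate 2 the run began at PDE_01064 and took in PDE_01066, described as a cyclic dipeptide prenyltransferase, at 97.03, 130.1 and 127 FPKM in wild type and 399, 121 and 359.6 FPKM in the deletion. Replicate 2 was inside or near the wild type range for each of these genes. PDE_01069 and PDE_01070 were not called without deletion replicates 1 or 3 or wild type replicates 1, 2 or 3 (adjusted p up to 0.151).

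Further runs in the fit without replicate 2, described after their values were seen, were PDE_00792 to PDE_00799 (8 genes), PDE_00803 to PDE_00809 (7 genes) and PDE_10001 to PDE_10010 (10 genes). The first held a second gene described as brevianamide F synthase, PDE_00793, at 11.1, 13.8 and 12.2 FPKM in wild type and 26.3, 12.9 and 26.1 FPKM in the deletion. PDE_00794, described as verruculogen synthase, an oxygenase of a later step in Aspergillus fumigatus, read 62.8, 104 and 83.3 FPKM in wild type and 267, 91.6 and 247 FPKM in the deletion. PDE_00806 of the second run, with the same description, read 46.8, 66.04 and 50.3 FPKM in wild type and 188, 54.4 and 188 FPKM in the deletion. In the third, a geranylgeranyl diphosphate synthase (PDE_10001), which makes a terpene precursor, read 16.8, 25.4 and 22.97 FPKM in wild type and 69.3, 21.6 and 62.7 FPKM in the deletion. PDE_10005, described as a prenyltransferase, read 20.6, 41.7 and 32.7 FPKM in wild type and 130.4, 30.5 and 108 FPKM in the deletion. The automated descriptions repeat within and between runs, so no product is named from them. With all libraries 2 genes of these 3 runs were called, the undescribed PDE_10007 (adjusted p = 0.0464) and PDE_10009, described as verruculogen synthase (adjusted p = 0.0484). The other genes named here from these runs were not called (adjusted p from 0.0523 for PDE_00794 to 0.475 for PDE_00803), and without replicate 2 each was (adjusted p from 5.22e-05 for PDE_00806 to 0.00672 for PDE_00809). PDE_10007 and PDE_10009 were not called without deletion replicates 1 or 3 or wild type replicates 1, 2 or 3 (adjusted p up to 0.165).

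**Figure D5:**
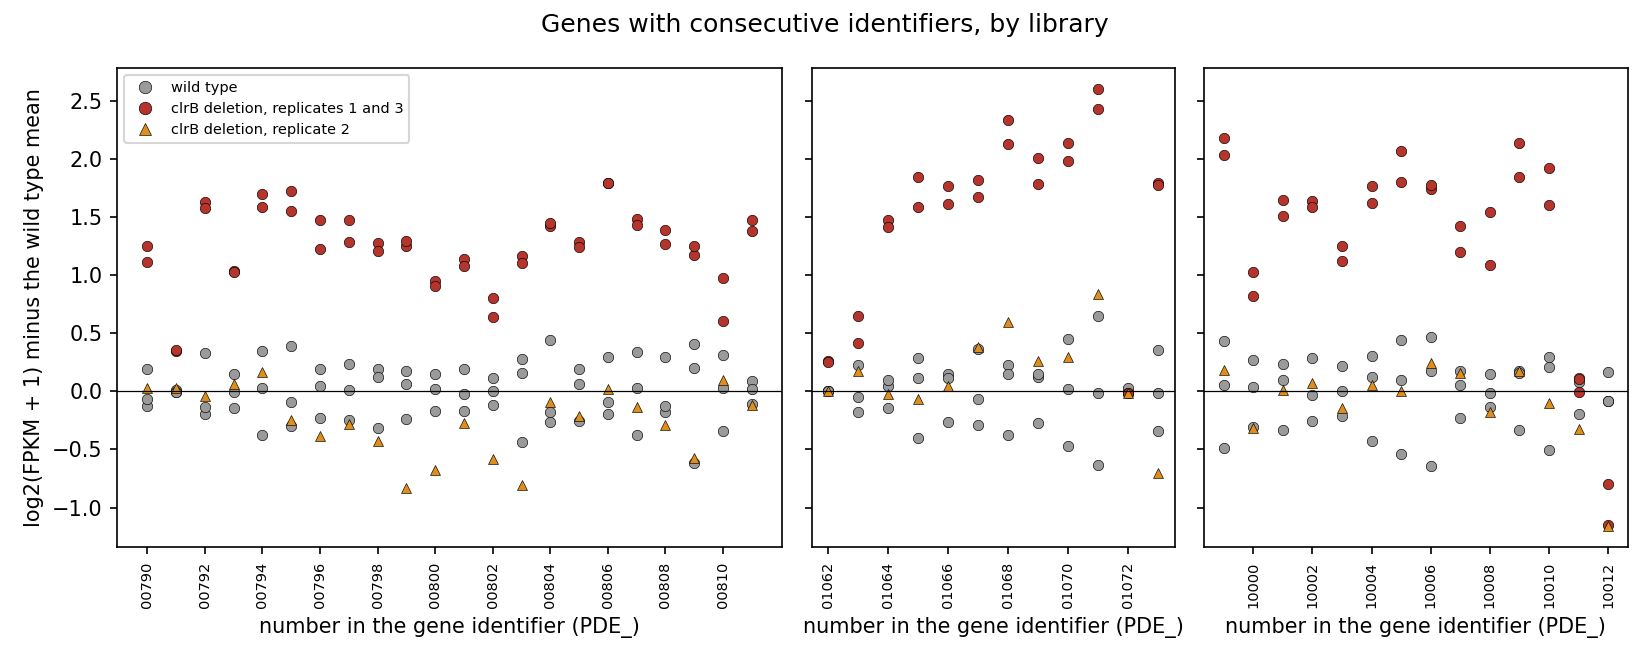
Log2(FPKM + 1) minus the wild type mean (vertical axis) for genes in order of their identifier (horizontal axis) around 3 stretches, with the wild type in grey, clrB deletion replicates 1 and 3 in red and replicate 2 as an orange triangle. Deletion replicates 1 and 3 lie above the wild type along each stretch, and replicate 2 lies among or close to the wild type libraries.

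The run of falls from PDE_00012 held a putative xylanase (PDE_00014) and the arabinofuranosidases PDE_00015 and PDE_00016, which remove side chains from xylan. PDE_00016 read 137, 114 and 108 FPKM in wild type and 27.4, 97.3 and 28.1 FPKM in the deletion, so that replicate 2 was close to the wild type. PDE_00014 read 3.34, 2.80 and 3.65 FPKM in wild type and 0.35, 0.34 and 0.21 FPKM in the deletion. The run from PDE_03927 held PDE_03928, described as a TatD DNase, at 39.9, 38.3 and 23.7 FPKM in wild type and 1.01, 0.84 and 1.20 FPKM in the deletion. The undescribed PDE_03927 read 202, 165 and 126 FPKM in wild type and 0.34, 2.26 and 0.27 FPKM in the deletion. No deletion library, replicate 2 included, was above 2.26 FPKM in that run. PDE_00015 was not called without deletion replicates 1 or 3 or wild type replicates 1, 2 or 3 (adjusted p up to 0.144).

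Transcription factors were called at about the background rate. Of 68 tested 8 rose (11.8%) and 5 fell (7.35%), with as few as 3 falls without deletion replicate 3. Without replicate 2, 10 rose and 9 fell. Those called with all libraries are all named here. Besides clrB, the falls were XlnR (PDE_07674), the activator of xylanase and cellulase genes, with 73.98, 73.9 and 59.1 FPKM in wild type and 41.7, 58.6 and 47.95 FPKM in the deletion (log2 change -0.48, SE 0.14, adjusted p = 0.036), HAC1, a GAL4-type regulator and PDE_00251. HAC1 (PDE_01436), the factor of the unfolded protein response, read 366, 332 and 252 FPKM in wild type and 180.2, 212 and 152 FPKM in the deletion (log2 change -0.80, SE 0.16, adjusted p = 0.0113). The GAL4-type regulator PDE_05883 had 18.4, 20 and 13.3 FPKM in wild type and 7.75, 5.24 and 5.97 FPKM in the deletion. PDE_00251, described as a transcriptional regulator, had 170.0, 146 and 111 FPKM in wild type and 70.2, 80.9 and 58.7 FPKM in the deletion. For XlnR replicate 2 was the deletion library nearest the wild type. PDE_07674 was not called without deletion replicates 1 or 3 or wild type replicates 1 or 2 (adjusted p up to 0.116). PDE_01436 was not called without deletion replicate 3 (adjusted p = 0.0502).

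Among the rises, the zinc finger protein PDE_07902 read 47.5, 46.5 and 45.99 FPKM in wild type and 151, 162 and 171 FPKM in the deletion (log2 change 1.77, SE 0.16, adjusted p = 2.51e-04). The putative factor PDE_01903 read 109.6, 124 and 115 FPKM in wild type and 256, 255 and 270.3 FPKM in the deletion (log2 change 1.16, SE 0.11, adjusted p = 2.42e-04). In both the deletion libraries lay close together, replicate 2 included, and far above the wild type. The others were BrlA and the heat shock factor, given above, and SPN1 (PDE_00711), RPH1 (PDE_00717), the mitochondrial transcription factor PDE_01893 and a second GAL4-type regulator (PDE_00562), which rose by 0.38 to 0.54 on the log2 scale. PDE_00717 was not called without deletion replicate 3 (adjusted p = 0.0514).

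Kinases and other signalling genes had 15 rises (17.4%) and 4 falls (4.65%) among 86, against 13.5% and 8.32% of all tested genes. Without replicate 2, 21 rose and 7 fell. As few as 4 rose without deletion replicate 3, and 1 fell without deletion replicate 1. The sphingomyelin phosphodiesterase PDE_06122, which makes the lipid ceramide, rose from 6.58, 6.66 and 7.87 to 31.7, 12.3 and 22.5 FPKM. The MAP kinase phosphatase PDE_07523 fell from 148, 156 and 146 to 94.2, 125 and 106 FPKM (log2 change -0.48, SE 0.12, adjusted p = 0.022). Folding and transport in the secretory pathway had 1 rise (2.27%) and 4 falls (9.09%) among 44, near the background in the falls. In this pathway 7 rose and 4 fell without replicate 2, and as few as 0 and 2 without deletion replicate 3. Its falls included the protein disulfide isomerase PDE_02993, which forms disulphide bonds in the endoplasmic reticulum, at 143, 112 and 104 FPKM in wild type and 61.4, 75.5 and 56.2 FPKM in the deletion (log2 change -0.88, SE 0.15, adjusted p = 0.00495). The signal recognition particle receptor PDE_07617, which docks ribosomes there, fell as well and read 216, 282 and 276 FPKM in wild type and 147, 114 and 148 FPKM in the deletion (log2 change -0.92, SE 0.15, adjusted p = 0.00533). PDE_07523 was not called without deletion replicates 1 or 3 or wild type replicates 1, 2 or 3 (adjusted p up to 0.0813).

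Besides the lists named so above, further processes had counts of calls near or below the background in both directions with all libraries. Among them were the proteasome and ubiquitin (14 rises and 4 falls of 136), histones and chromatin (10 and 2 of 63), DNA replication and repair (4 and 3 of 67), glycosylation and lipid anchors (6 and 2 of 49), ABC and drug efflux transporters (7 and 2 of 53), cytochromes P450 (1 and 1 of 9) and pentose and galactose use (1 and 1 of 14). Without deletion replicate 3 the rises were 4, 1, 0, 0 and 3 for the first 5 of these. Without replicate 2, 24.2% of all tested genes rose and 13.4% fell. The rises and falls of the same 5 lists were then 30 and 4, 12 and 5, 9 and 6 (of 66 tested), 10 and 7, and 10 and 8. Cytochromes P450 had 3 rises (33.3%) and 1 fall in that fit, and pentose and galactose use 3 and 1. Within them the efflux pump PDE_00295 of the PDR type, which exports drugs in yeast, rose from 12.1, 13.5 and 12.7 to 36.1, 24.8 and 38.5 FPKM (log2 change 1.29, SE 0.15, adjusted p = 8.68e-04), and the ubiquitin ligase PDE_03943 fell from 75.5, 81.6 and 73.3 to 34.9, 42.7 and 39.4 FPKM (log2 change -0.96, SE 0.14, adjusted p = 0.00266).

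The genes that most set replicate 2 apart from both other deletion libraries were chosen on these values and are given as a description with no test. Among those highest in replicate 2 were arabinofuranosidases and a transporter. The arabinofuranosidase PDE_07585 read 207, 156 and 119 FPKM in wild type and 62.7, 585 and 73.9 FPKM in the deletion. A further one, PDE_07897, read 165, 128 and 82.1 FPKM in wild type and 47.1, 234 and 43.9 FPKM in the deletion. A myo-inositol or sugar transporter (PDE_03309) read 25.8, 25.4 and 15.6 FPKM in wild type and 7.26, 82.1 and 8.42 FPKM in the deletion. In these 3 genes replicate 2 was the highest of the 6 libraries, and the other deletion libraries were the lowest. PDE_03292, described as a chitin binding protein, read 2373, 2040.4 and 2189.9 FPKM in wild type and 228, 1971 and 295 FPKM in the deletion, so that replicate 2 was just below the wild type.

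Among the genes lowest in replicate 2 against both other deletion libraries were glucanases, a transporter and a gene of propionate use. Methylisocitrate lyase (PDE_06062), which ends the methylcitrate cycle, read 890.5, 495 and 618 FPKM in wild type and 2761, 129 and 1459 FPKM in the deletion, and replicate 2 was below every other library. The sugar:H+ symporter PDE_06397 read 5.90, 7.12 and 4.90 FPKM in wild type and 76.2, 6.82 and 64.04 FPKM in the deletion, with replicate 2 at the wild type level. PDE_05515, a putative beta-1,3-glucanase, which degrades fungal glucan, read 74.1, 142 and 352 FPKM in wild type and 1345, 194 and 1301 FPKM in the deletion. The endo-beta-1,3-glucanase PDE_02862 read 23.97, 36.3 and 88.6 FPKM in wild type and 289.7, 45.1 and 325 FPKM in the deletion. The wild type libraries themselves differed several-fold for both glucanases, in a range that held replicate 2. None of these 4 genes was called with all libraries.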

How the data were processed

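The authors deposited FPKM per gene and library, with 2 decimals. Per the labels' protocols, the libraries hold 35 base tags made with NlaIII and MmeI from oligo(dT)-selected RNA. Aligner, counting, gene lengths and build: not given in the sources used here. A tag comes from a fixed site whereas FPKM divides by length, so single levels are compared within a gene only. Summed levels of a list are compared between libraries over the same genes, and genes with high FPKM weigh most in them. Near-identical copies may share reads. The 3 further value columns, of another strain, were not analysed here. Matching to the RefSeq table ASM172317v3 (9964 genes) found 0 identifiers, so no coordinates or sequences are given.

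Genes averaging at least 1 FPKM over 9 libraries entered limma 3.58.1 (R 4.3.3) as log2(FPKM + 1), with an intensity trend, a mean for each strain and Benjamini-Hochberg adjustment over all tested genes. The fit was tested on simulated data, whose spread came from the wild type and rcoA deletion libraries. That test does not cover the wider spread among the clrB deletion libraries. Same-numbered wild type and deletion libraries did not deviate together (correlations -0.06, 0.08 and 0.34) and were not paired.

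The comparison, the 39 lists (words sought in the automated descriptions) and the naming rule were chosen with earlier results of these data known. The rule takes ClrB and the 12 largest described rises and falls outside the cellulose and hemicellulose lists. These had strains apart and at least 10 FPKM in 1 strain. Under the same conditions it takes the 2 largest called members of each list in each direction. Without these conditions it takes all called transcription factors, the 3 highest called cellulose genes and members of runs. Also taken were the 10 genes each way in which replicate 2 differed most or decided the call, with at least 10 FPKM in 1 group. For those where it decided the call, deletion replicates 1 and 3 were apart from the wild type. Up to 75 further genes were added after their values were seen, as abundant list members or members of runs without replicate 2, and not every eligible gene is printed.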

Additional observations from a re-analysis of the deposited data

How the results depend on the processing

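With all 9 libraries 1987 genes were called. Without 1 library at a time, the total ranged from 724 to 3409, rises from 389 to 2195 and falls from 335 to 1214, the highest being those without clrB deletion replicate 2. Leaving out 1 library also leaves fewer samples. Without the rcoA deletion libraries 1274 genes were called, 732 of them rises, and with library weights 4369 (2749 rises and 1620 falls). Settings added after seeing the data, both without replicate 2, gave 3225 calls with equal medians (1497 falls) and 3214 without the rcoA deletion libraries (2042 rises and 1172 falls). The replicate block gave 1725 calls (1067 rises and 658 falls), and same-numbered libraries did not deviate together. Other pseudocounts, filters and scalings kept the total within 1.5 times the main count. The balance turned with scaling: rises were 61.9% of calls as deposited but 49.9% with equal medians, 46.4% with trimmed mean factors and 49.2% after quantile normalization. Over the gene lists, leaving out 1 library moved 29 to 48 counts of rises or falls by over 1.5 times. No called gene among those named changed direction. Of 183 called genes printed or eligible to be printed, 104 stayed called in all 18 alternatives. Depth is unknown, so no counting error could be given.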
